A study of Mus musculus with 8 samples.

Results

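The proteasome is the protease complex that degrades proteins tagged with ubiquitin. A barrel-shaped core of outer alpha rings (Psma genes) and inner beta rings (Psmb genes) holds the proteolytic sites, and a cap of ATPases (Psmc genes) and other subunits (Psmd genes) binds, unfolds and feeds in the substrate. In cells exposed to interferon, and constantly in many immune cells, Psmb8, Psmb9 and Psmb10 replace the constitutive catalytic subunits Psmb5, Psmb6 and Psmb7 and form the immunoproteasome, which favours peptides that bind class I major histocompatibility molecules. Genes of the constitutive form were read in both liver and uterus.

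The members described here are the 43 of 23282 gene rows whose symbol is Psma, Psmb, Psmc, Psmd or Psme followed by digits only. They are 14 constitutive core genes, 3 immunoproteasome genes, 17 cap genes, 3 chaperones of cap assembly (Psmd5, Psmd9 and Psmd10), 4 genes of other activators (Psme1 to Psme4) and 2 core genes known from single tissues (Psma8 from testis, Psmb11 from thymus). In both tissues 40 of the 43 reached a mean of 10 counts per 1000000 library counts (CPM), and the exceptions were Psmb2, Psma8 and Psmb11.

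The measurements are 3' end sequencing libraries (QuantSeq, in which a transcript gives about 1 read however long it is). Levels compared between genes still depend on how reads at each 3' end were assigned. The tissues are liver and uterus from ovariectomized female CD-1 mice, an outbred stock, operated at 6 weeks of age and left for 1 week. The mice received bisphenol A (BPA, a plastics monomer with estrogenic activity) at 200 mg/kg/day, Korean red ginseng extract (KRG) at 1.2 g/kg/day, the combination of these, or no agent (control), by mouth for 7 days. Each of the 8 combinations of tissue and treatment is 1 library, and the number of animals behind it is not stated in the labels, nor is any link between a liver and a uterus library. The series asks whether ginseng alters the influence of BPA. All groups share ovariectomy, so no library has the ovarian estrogen of an intact female.

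Library totals ran from 12372073 to 15290950 counts, and Rn45s, the ribosomal RNA precursor, took 8.30% to 12.4% of them. Alb stood at 11550.1 to 15211 CPM in liver and at 2.09 to 407 CPM in uterus. Uterine smooth muscle markers summed to 2680 to 3893 CPM in uterus and to 22.1 to 34.7 CPM in liver. Markers of other tissues were present: acinar pancreas genes summed to 429 CPM in the BPA liver library and to 0.392 to 3.63 CPM in the other 3. Urothelial genes reached 5926 CPM in the BPA and 10254 CPM in the combined uterus library, against 337 CPM in control and 68.1 CPM with KRG. Each run of 4 values below gives CPM of library totals for control, then BPA, then KRG, then the combination. No treatment has a replicate, and a mean ± SD over 4 libraries of a tissue includes the treatment differences. In bulk tissue, fewer cells of a type and less RNA per cell cannot be told apart.

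The core genes had very unequal read counts in both tissues, although each subunit has the same number of copies in the particle. Psma7, an outer ring subunit, was the highest, at 372, 334, 374 and 383 CPM in liver (mean 365 ± 21.8, SD, n = 4) and at 509, 504, 519 and 459 CPM in uterus (498 ± 26.7). Psmb2, an inner ring subunit, was the lowest, at 7.65, 6.24, 5.83 and 8.65 CPM in liver and 6.05, 10.9, 7.85 and 8.99 CPM in uterus. The highest mean was 51.5 times the lowest in liver and 58.9 times in uterus. The part of read assignment in these ratios was not tested. Among the 13 core genes that reached 10 CPM these ratios were 11.5 and 12.6, with Psma5 lowest in both tissues. Levels of Psma3, Psma5, Psmb3, Psmb5, Psmd1, Psmd2, Psme1 and Psme2 are uncertain in such comparisons, because their 3' ends match near-identical copies elsewhere. Of the 40 members that reached 10 CPM, these 8 had a median of 40.3 CPM in liver and the other 32 had 94.1 CPM.

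In the outer ring, Psma4 stood at 174, 176, 193 and 197 CPM in liver and at 207, 189.9, 194 and 144 CPM in uterus, where the combined library was the low one. Psma5 stood at 37.9, 26.3, 30.2 and 32.7 CPM in liver and at 36.7, 36.9, 36.3 and 47.8 CPM in uterus, where the combined library was the high one. Psma1 had 52.2, 32.0, 44.4 and 53.2 CPM in liver, lowest with BPA, and 56.2, 57.5, 55.5 and 57.4 CPM in uterus, the narrowest range of any outer ring gene there. All 4 uterus libraries of Psma6 (49.8, 51.2, 54.2 and 41.5 CPM) lay above all 4 liver libraries (31.6, 31.1, 32.6 and 34.4 CPM). Psma2 and Psma3 ran from 31.0 CPM (Psma3 in the KRG liver library) to 299 CPM (Psma2 in the KRG uterus library).

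Of the structural inner ring genes, Psmb1 stood at 328, 360.2, 342 and 367 CPM in liver and 426, 424, 422 and 389.7 CPM in uterus. Psmb4 stood at 267, 265, 283 and 286 CPM in liver and 246, 237, 246 and 240.4 CPM in uterus. Psmb3 stood at 39.7, 44.8, 42.4 and 53.5 CPM in liver and 43.3, 34.0, 47.6 and 49.0 CPM in uterus. Psmb1 was thus higher in all 4 uterus libraries, Psmb4 in all 4 liver libraries, and Psmb3 overlapped.

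The constitutive catalytic genes were closer to each other. Psmb5, the chymotrypsin-like subunit, stood at 157, 167, 161 and 152 CPM in liver (159 ± 6.42, n = 4) and 142, 139, 127 and 154 CPM in uterus (141 ± 11.1). Psmb6, the caspase-like subunit, stood at 263, 294, 261 and 289 CPM in liver (277 ± 17.2) and 253, 197, 209.6 and 244 CPM in uterus (226 ± 27.0). Psmb7, the trypsin-like subunit, stood at 159, 108, 169 and 149.6 CPM in liver (146 ± 27.0) and 138, 124, 160.0 and 106 CPM in uterus (132 ± 22.8). Psmb7 had the largest ratio of highest to lowest library of the 3 in both tissues, while Psmb6 had the larger SD in uterus. Psmb7 was lowest with BPA in liver and with both in uterus.

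**Figure D1:**
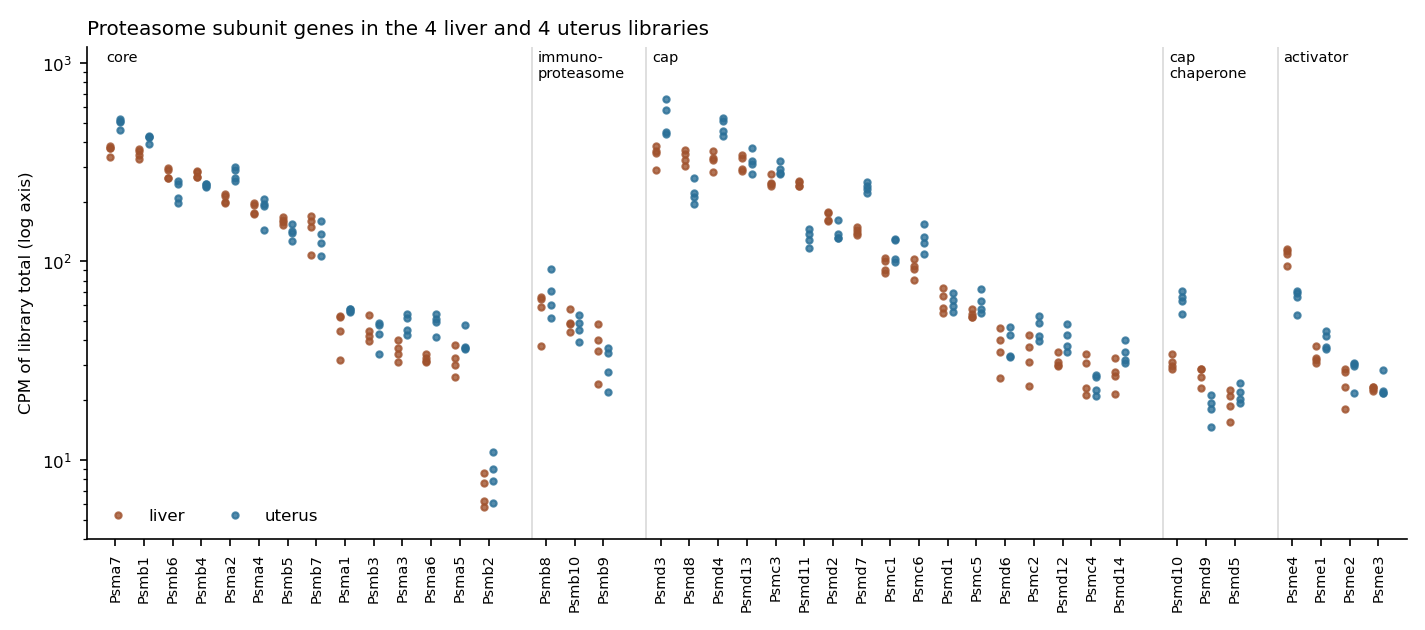
CPM of library totals (log axis) of 41 proteasome subunit genes, with 1 point per library, 4 liver libraries in brown and 4 uterus libraries in blue, ordered within each class by liver mean; Psma8 and Psmb11 are left out. Core genes range from Psma7 down to Psmb2, the 4 points of a tissue mostly lie close together, and Psmd10, Psmd7, Psmd11, Psmd8, Psmd9 and Psme4 show tissues apart.

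In the cap, Psmd3, a lid subunit, was the highest gene, at 359.6, 351, 288 and 379.9 CPM in liver (344 ± 39.7, n = 4) and 578, 449, 436 and 657 CPM in uterus (530.4 ± 106). Its uterus values had the largest span of the lid genes there, 1.51-fold, with the combined and control libraries high. Psmd4, a ubiquitin receptor of the base, stood at 331, 359, 283 and 324 CPM in liver and 426, 453, 509.5 and 529.9 CPM in uterus. Psmd4 was higher in all 4 uterus libraries. The base scaffold genes were lower, with Psmd2 at 177, 162, 159 and 176 CPM in liver and 130.4, 131, 137 and 161 CPM in uterus. Psmd1 stood at 66.7, 58.3, 55.0 and 73.6 CPM in liver and 59.6, 63.8, 55.4 and 69.5 CPM in uterus.

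The 6 ATPase genes spanned from Psmc3, at 248, 276, 245 and 241 CPM in liver and 321, 290.3, 276 and 279.8 CPM in uterus, to Psmc4, at 23.2, 34.2, 21.2 and 30.6 CPM in liver and 21.1, 26.7, 26.3 and 22.6 CPM in uterus. In liver both libraries given BPA were above both without it for Psmc4. Psmc6 was higher in all 4 uterus libraries (155, 124, 132 and 109 CPM) than in the liver libraries (80.2, 95.1, 91.8 and 103 CPM). Psmc2 had the widest liver span of the ATPases, with 37.1, 23.7, 31.2 and 42.8 CPM, lowest with BPA, and 41.9, 53.1, 39.6 and 48.9 CPM in uterus. Psmc1 and Psmc5 lay between 52.6 CPM (Psmc5 in the KRG liver library) and 129.7 CPM (Psmc1 in the combined uterus library).

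In the lid, Psmd14, the deubiquitinase that removes the ubiquitin chain, was the lowest cap gene in liver by its mean, at 27.7, 26.4, 21.6 and 32.7 CPM, and stood at 30.9, 35.1, 32.0 and 40.0 CPM in uterus. Psmd6 stood at 46.2, 26.0, 40.1 and 35.1 CPM in liver and 33.2, 46.9, 42.5 and 33.2 CPM in uterus, so that the BPA library was lowest in liver and highest in uterus. Psmd7 stood at 144, 149, 136 and 139.5 CPM in liver and at 239, 220.2, 252 and 232 CPM in uterus. Psmd12 and Psmd13 lay between 29.8 CPM (Psmd12 in the BPA liver library) and 372 CPM (Psmd13 in the combined uterus library). The assembly chaperone Psmd5 stood at 22.4, 15.5, 18.6 and 20.9 CPM in liver and 22.0, 19.3, 20.2 and 24.3 CPM in uterus.

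The comparison with the most libraries per side is liver against uterus, with the 4 treatments of a tissue as its spread and no true replicates. It used edgeR's quasi-likelihood test (Benjamini-Hochberg adjusted p under 0.05 over 8687 genes). Psmd11, Psme4, Psmd8 and Psmd9, 4 of 40 members, were higher in liver under both ways of scaling the libraries. The share of all genes called in the same direction under both was not counted. On library totals alone, 20.4% of all genes were higher in liver. Psmd11, a lid subunit (chr11:80428615-80473248, mm10), stood at 241, 250.5, 241 and 253 CPM in liver and at 128, 138, 117 and 146 CPM in uterus. Its log2 fold change was 0.90 (SE 0.11, adjusted p = 6.86e-05, edgeR) on library totals and 1.85 (SE 0.12) by trimmed mean (TMM) scaling. Psme4, the gene of a nuclear activator (chr11:30771726-30880361), stood at 116, 113, 95.1 and 109 CPM in liver and at 69.5, 70.9, 53.4 and 66.6 CPM in uterus. Its log2 fold change was 0.73 on totals (SE 0.12, adjusted p = 0.000505, edgeR) and 1.69 by TMM (SE 0.12).

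Psmd8, a lid subunit (chr7:29174188-29180701), stood at 349, 325, 303 and 364 CPM in liver and 195, 220.4, 211 and 263 CPM in uterus. Psmd9, an assembly chaperone of the base (chr5:123169413-123250131), stood at 28.7, 28.6, 26.0 and 23.0 CPM in liver and 14.6, 19.4, 18.1 and 21.3 CPM in uterus. For both genes the lowest liver library was above the highest uterus library. Their log2 fold changes on totals were 0.59 (SE 0.14) and 0.53 (SE 0.15), with adjusted p of 0.00314 and 0.00854 (edgeR).

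No member was lower in liver under both scalings, and the other directions turned on the scaling. With TMM, 36 of 40 members were higher in liver and 0 lower, against 41.1% of all genes higher and 34.8% lower. With library totals, 4 were higher and 10 lower, against 20.4% higher and 61.5% lower. The 10 lower ones were Psma2, Psma3, Psma6, Psma7, Psmc6, Psmd3, Psmd4, Psmd7, Psmd10 and Psmd12, of which 6 were called higher with TMM. The median of all genes moved from 0.13 with TMM to -0.82 with totals, a shift common to every gene. Relative to that median the members moved little between scalings: their median was 0.75 with TMM and -0.20 with totals, 0.63 and 0.62 above the median of all genes. That distance depends on which genes are tested: with TMM it was 0.93 at a mean of 1 CPM and 1.15 with no filter. Of the 40 members, 39 stood above the all-gene median under TMM, and Psmd10 was the exception.

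Psmd10, an assembly chaperone also known as gankyrin (chrX:140948429-140956728), stood at 31.0, 28.6, 29.8 and 34.2 CPM in liver and at 63.4, 66.5, 54.4 and 71.0 CPM in uterus. Its log2 fold change was -1.05 on totals (SE 0.12, adjusted p = 3.59e-05, edgeR) and -0.10 with TMM (SE 0.10, adjusted p = 0.372). The chaperones of cap assembly thus differed among themselves, with Psmd9 the higher in liver and Psmd10 the higher in uterus on library totals.

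On library totals, all 4 liver values lay above all 4 uterus values in 6 members, against 19.3% of all genes, and below them in 12, against 59.2%. The 6 were Psmb4, Psmb6 and the 4 genes called under both scalings. By class, the TMM calls took in all 13 tested core genes, 14 of 17 cap genes, 2 of 3 chaperones, all 4 activator genes and all 3 immunoproteasome genes, while on totals the 13 core genes gave 0 higher and 4 lower and the cap genes gave 2 higher and 5 lower.

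**Figure D2:**
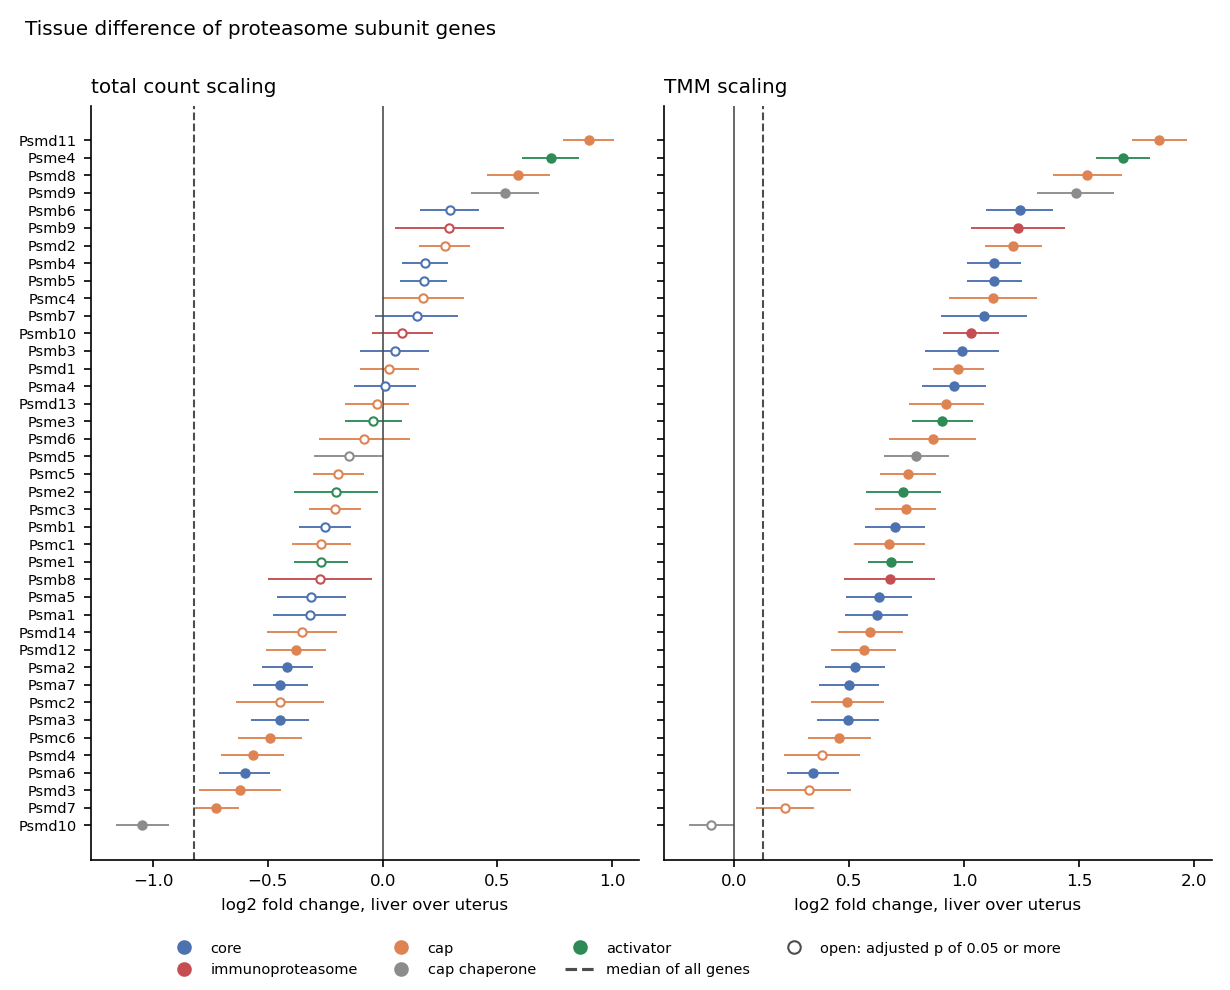
Log2 fold change of liver over uterus for 40 members (edgeR, 4 against 4 libraries, bars ± SE), with library totals on the left and TMM scaling on the right; filled points have an adjusted p under 0.05 and the dashed line is the median of all 8687 genes. Every member but Psmd10 lies right of the dashed line in both panels, while the zero line falls among the members with totals and left of nearly all of them with TMM.

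Genes that build or use the proteasome were read from a list of 20 assembly factors and associated proteins, of which 17 were tested. With TMM 11 were higher in liver and 1 lower, against 41.1% and 34.8% of all genes. With totals 5 were higher and 7 lower, against 20.4% and 61.5%. Pomp, the chaperone of core maturation, stood at 1088, 1199, 1238 and 1085 CPM in liver and at 915, 940.2, 840.3 and 673 CPM in uterus, above every core subunit in each library. Of the 6 tested regulators of proteasome genes, 3 were higher and 2 lower in liver with TMM, and 2 were higher and 3 lower with totals. The same shares of all genes apply to these counts. Ddi2, the protease that activates the transcription factor encoded by Nfe2l1, was higher in liver under both (45.1, 50.6, 39.8 and 52.3 CPM against 7.17, 11.2, 8.31 and 19.1 CPM). Nfe2l3, a relative of Nfe2l1, was lower under both, at 0.0808 to 0.589 CPM in liver and 9.85 to 31.4 CPM in uterus.

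All 3 immunoproteasome genes were lowest in the BPA library in liver, the position of 39% of all genes there, and in uterus the highest library differed among them. Psmb8 (chr17:34197721-34201454, in the major histocompatibility region) stood at 66.3, 37.7, 64.4 and 59.1 CPM in liver and at 71.0, 91.5, 60.2 and 52.1 CPM in uterus. The BPA library was thus the lowest of 4 in liver and the highest of 4 in uterus. Psmb9 (chr17:34181987-34187764, beside Psmb8) stood at 35.4, 24.2, 40.1 and 48.6 CPM in liver and at 27.9, 36.7, 22.1 and 34.5 CPM in uterus. Its BPA library was also the lowest in liver and the highest in uterus, there by little over the combined library. Psma1, Psmc2, Psmd6 and Psme2, outside the immunoproteasome, had this order too, in uterus by little for Psma1 and Psme2. The share of all genes with this order was not counted. Psmb10 (chr8:105935735-105938444) stood at 48.9, 44.2, 48.3 and 57.8 CPM in liver and at 53.9, 45.3, 49.1 and 39.4 CPM in uterus, lowest with BPA in liver but highest in the control uterus.

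Psmb8 was 1.76-fold lower with BPA than in control liver (95% exact counting interval 1.58 to 1.96) and 1.29-fold higher with BPA than in control uterus (1.18 to 1.40). These intervals hold counting error only and compare libraries, not treatments. In the pair that shares no library with these, both against KRG, Psmb8 was 1.09-fold lower in liver (0.988 to 1.20) and 1.16-fold lower in uterus (1.04 to 1.28). The Psmb8 ratio thus differed between the pairs without and with KRG, a difference that was not tested, since each of the 4 combinations is 1 library.

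Psmb9 was 1.46-fold lower with BPA than in control liver (1.27 to 1.69), but 1.21-fold higher with both than with KRG (1.08 to 1.36). In uterus it was higher in both pairs, by 1.32-fold (1.15 to 1.51) and 1.56-fold (1.35 to 1.81). Psmb10 was 1.10-fold lower with BPA in liver (0.989 to 1.23) and 1.20-fold higher with both than with KRG (1.08 to 1.33). In uterus the BPA library had 0.839 times the control level (0.752 to 0.935), and the combined library 0.802 times the KRG level (0.716 to 0.899).

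None of these passed a test of the factors. In an additive fit of both agents, made within each tissue (edgeR, 2 libraries against 2, 1 residual degree of freedom, any interaction counted as error), the largest immunoproteasome differences were Psmb9 with BPA in uterus, log2 0.46 (SE 0.21, adjusted p = 0.438), and Psmb9 with KRG in liver, log2 0.53 (SE 0.22, adjusted p = 0.999). Between tissues the 3 genes were called higher in liver with TMM, by log2 0.68 (SE 0.20) for Psmb8, 1.23 (SE 0.20) for Psmb9 and 1.03 (SE 0.12) for Psmb10. On library totals none was called, with -0.27 (SE 0.23), 0.29 (SE 0.24) and 0.09 (SE 0.13), and Psmb8 changed sign. The difference between tissues in the BPA effect, uterus minus liver, was 0.49 for Psmb8 (SE 0.33, adjusted p = 0.622), 0.59 for Psmb9 (SE 0.30, adjusted p = 0.509) and -0.41 for Psmb10 (SE 0.24, adjusted p = 0.570).

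Set against the subunit each one replaces, the shares do not depend on how libraries were scaled. Psmb8 made 29.6% of Psmb8 and Psmb5 counts in control liver (exact Clopper-Pearson 95% interval 28.1 to 31.2), 18.4% with BPA (17.0 to 20.0), 28.5% with KRG and 28.0% with both. In uterus the shares were 33.3% (31.5 to 35.0), 39.7% (38.0 to 41.4), 32.1% and 25.3% (23.7 to 26.8). Psmb9 made 11.9%, 7.60%, 13.3% and 14.4% of Psmb9 and Psmb6 counts in liver and 9.92%, 15.7%, 9.54% and 12.4% in uterus. For both genes the BPA library had the lowest share in liver and the highest in uterus, beyond counting error.

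Psmb10 made 23.5%, 29.1%, 22.2% and 27.9% of Psmb10 and Psmb7 counts in liver and 28.1%, 26.7%, 23.5% and 27.1% in uterus. This share was highest, not lowest, with BPA in liver, where its partner Psmb7 was low. Over the 3 pairs together the immunoproteasome share was 20.6%, 15.7%, 20.5% and 21.9% in liver and 22.3%, 27.4%, 20.9% and 20.0% in uterus. In the control libraries the Psmb8 and Psmb10 shares were higher in uterus and the Psmb9 share higher in liver, each beyond counting error. This order did not hold across treatments. It was reversed with BPA for Psmb9 and Psmb10, and with both for Psmb8 and Psmb10. Only for Psmb9 with BPA were the counting intervals of the tissues apart (6.81 to 8.45 in liver, 14.5 to 17.0 in uterus). In the other reversals they overlapped.

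**Figure D3:**
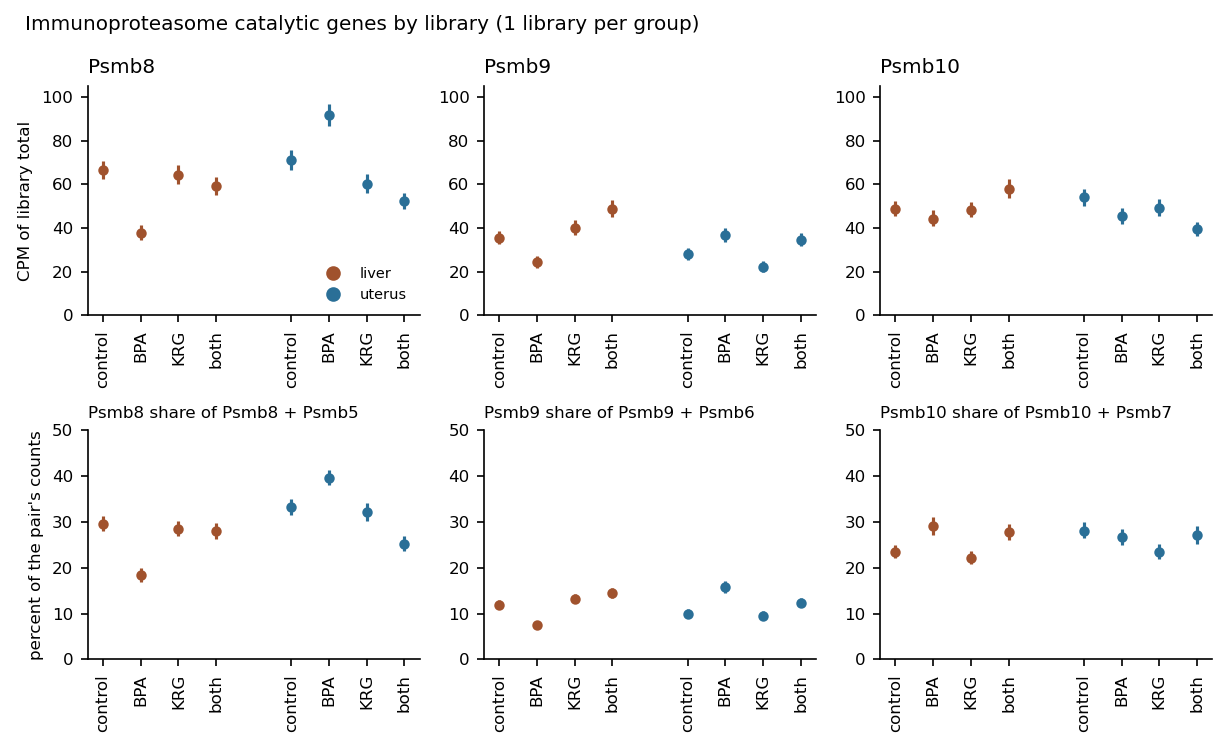
Upper row, CPM of library totals of Psmb8, Psmb9 and Psmb10 in each of the 8 libraries (bars, exact 95% Poisson intervals); lower row, the percent of counts each makes of its pair with the constitutive subunit it replaces (bars, Clopper-Pearson 95% intervals). The BPA library is lowest of 4 in liver and highest of 4 in uterus for Psmb8 and Psmb9 in both rows, which Psmb10 does not show.

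Interferon response genes were mostly lowest in the BPA library in liver and highest in it in uterus. Psmb8 and Psmb9 had this order, but so did Psma1, Psmc2, Psmd6 and Psme2, and a link between these orders was not tested. Of 14 listed interferon genes averaging 1 CPM or more in liver, 12 were lowest in the BPA library, against 40.3% of all genes at that level. Of 15 in uterus, 13 were highest in the BPA library, against 26.0% of all genes. Their summed level was 220.4, 129, 165 and 207 CPM in liver and 406, 544, 281 and 318 CPM in uterus. Irf1, a transcription factor that interferon induces, stood at 94.8, 41.2, 51.1 and 81.1 CPM in liver and 112, 139, 81.1 and 82.6 CPM in uterus. Ifng itself was at 0 counts in 6 of the 8 libraries. In the additive fits 0 of the 4 tested interferon genes in liver and 0 of the 9 in uterus passed for BPA.

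Macrophage and dendritic cell markers (12 of 12 listed present) summed to 281, 215, 265 and 428 CPM in liver and 607, 615, 469.7 and 496 CPM in uterus, lowest with BPA in liver. In uterus the BPA and control sums were close, and 4 of the 12 markers (C1qa, C1qb, C1qc and H2-Eb1) were highest with BPA. General leukocyte markers (12 of 13 present) summed to 90.1, 96.1, 72.5 and 113 CPM in liver and 282, 265, 239 and 323 CPM in uterus, where BPA was neither extreme. The T cell markers Cd3e and Cd8a were at 0 to 1.00 CPM in every library. Hepatocyte markers in uterus summed to 665, 80.7, 1413 and 67.8 CPM, low in both libraries given BPA, and 5 of the 6 tested were called lower for BPA there (edgeR). The part of these cells, of the urothelial genes and of the pancreas genes in the Psmb8 and Psmb9 values was not tested. Of 10 genes of class I antigen presentation, H2-K1 stood at 139.9, 538, 1055 and 529 CPM in liver and 286, 86.2, 76.4 and 237 CPM in uterus. Tap1, the peptide transporter gene that lies between Psmb8 and Psmb9, stood at 11.8, 13.9, 16.2 and 15.7 CPM in liver and 25.2, 32.7, 16.4 and 23.8 CPM in uterus, highest with BPA in uterus but not lowest with BPA in liver. Tap2 and Nlrc5 were likewise highest with BPA in uterus only. B2m, H2-D1 and Erap1 were lowest with BPA in liver but not highest with it in uterus.

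Promoter sequence was read for the 36 members matched in the RefSeq table (GRCm38.p6, from 250 bases before to 50 after the start), on both strands. The interferon-stimulated pattern, a pair of GAAA half-sites with 2 bases between them, was found in 4 of 36 members, against 3.99% of all 27025 genes, and the STAT pattern TTCNNNGAA in 2 of 36, against 9.55%. Among the immunoproteasome genes, only the Psmb8 window held the STAT pattern, and no window of the 3 held the interferon-stimulated one. The pattern TGANNNNGC, the core of the site for Nfe2l1 and Nfe2l2 products, was in 21 of 36, against 45.0% of all genes, and in 8 of the 11 matched core genes. The 30-base windows below show these letters where they lie before the RefSeq start, with the match in capitals, read 5′ to 3′ along the gene's strand. The fourth interferon-stimulated match, in Psme1, lies 9 bases after the start. Psmb7 was not matched, so its promoter was not read, nor were those of Psma8, Psmb1, Psmb2, Psmc3, Psmd3 and Psmd7. Shown are the Psmb8 match and the 3 interferon-stimulated matches before a start. Also shown are the TGANNNNGC matches of Psmb5, Psmb6 and Psmb9, the matched catalytic genes that hold one before the start.
Psmb8 (chr17:34198088-34198117, plus strand): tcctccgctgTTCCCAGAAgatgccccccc
Psmb3 (chr11:97703261-97703290, plus strand): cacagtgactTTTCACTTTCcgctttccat
Psmd4 (chr3:95042675-95042704, minus strand): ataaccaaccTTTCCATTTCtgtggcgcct
Psmd9 (chr5:123228021-123228050, plus strand): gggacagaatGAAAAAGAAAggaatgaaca
Psmb5 (chr14:54618023-54618052, minus strand): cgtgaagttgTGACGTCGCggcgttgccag
Psmb6 (chr11:70525327-70525356, plus strand): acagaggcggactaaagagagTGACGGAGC
Psmb9 (chr17:34187371-34187400, minus strand): ccttgcgcgaTGATGGGGCggggcctcagt
These matches lie 97 bases before the RefSeq start in Psmb8, 47 in Psmb5, 9 in Psmb6 and 60 in Psmb9. The stretches of Psmb8, Psmb9 and Psmd9 lie inside the gene coordinates given above, which begin further upstream (GENCODE). Sequence before those upstream starts was not read. For Psmb8 the bases after the RefSeq start were not found at the start of a GENCODE transcript. In Psmb3, Psmd4 and Psmd9, which hold the interferon-stimulated letters, the BPA liver values were 44.8, 359 and 28.6 CPM, the lowest of 4 in none of them. In Psme1 the BPA liver value was 32.5 CPM, also not the lowest. The Psmb8 window lacks these letters, and a link between letters and the order of libraries was not tested.

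The genes of the activator that partners the immunoproteasome, Psme1 and Psme2, are also interferon-responsive. Psme1 stood at 30.8, 32.5, 32.0 and 37.7 CPM in liver and 42.2, 44.5, 37.3 and 36.3 CPM in uterus, highest with BPA in uterus but not lowest with BPA in liver. Psme2 stood at 27.7, 18.0, 23.4 and 28.8 CPM in liver and 30.4, 30.8, 29.9 and 21.8 CPM in uterus, with the low value at BPA in liver as for Psmb8. Psme2 values are uncertain, because the last 300 bases of its transcript are 99% identical to Psme2b, a near copy that was picked out after its values were seen. Psme2b took the larger part of the counts, 156, 120.5, 146 and 171 CPM in liver and 149, 144, 143 and 123 CPM in uterus, and Psme2 made 13.0% to 17.6% of the counts of the pair. Psme3, a nuclear activator, was among the steadiest members in liver (23.3, 22.7, 22.2 and 23.3 CPM) and stood at 22.2, 21.6, 21.8 and 28.5 CPM in uterus.

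The spread of the members over the 4 libraries of a tissue, treatments included, had a smaller median than that of all genes. The ratio of the highest to the lowest of 4 libraries, on CPM + 1, reached 2-fold in 0 of 40 members in either tissue, against 8.44% of all genes in liver and 16.4% in uterus. On CPM without the added 1, Psmb9 in liver was 2.01-fold. The median span was 1.22 in liver against 1.33 over all genes, and 1.30 in uterus against 1.45. The 3 immunoproteasome genes had the wider median, 1.74 in liver and 1.63 in uterus. In liver 15 of 40 members were lowest in the BPA library, close to the 39% of all genes, and 16 in the KRG library, against 28%. In the combined library 21 were highest, against 35.5% of all genes.

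**Figure D4:**
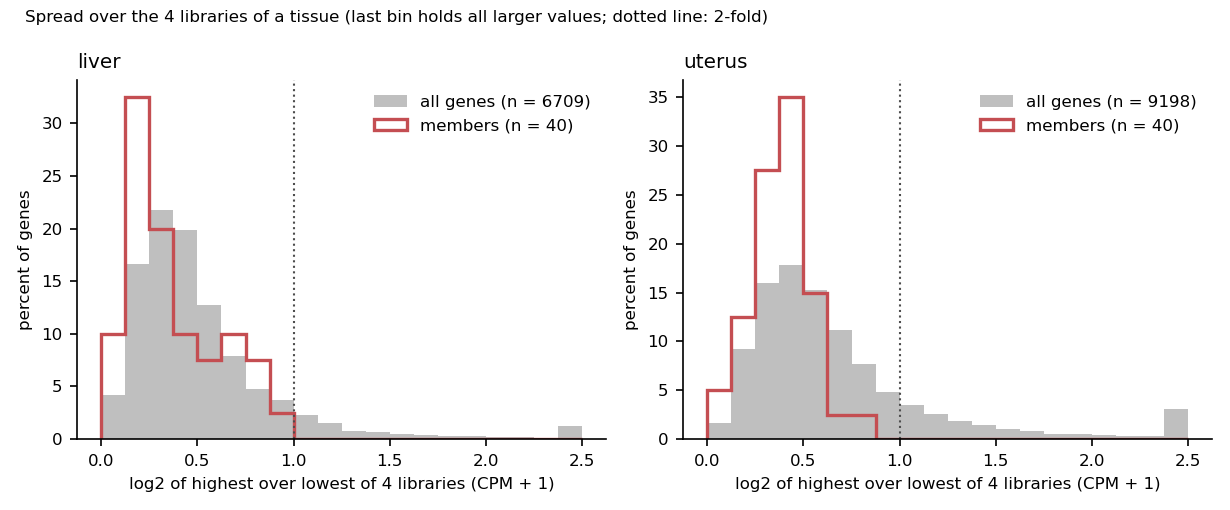
Percent of genes by the log2 ratio of the highest to the lowest of the 4 libraries of a tissue (CPM + 1), for every gene averaging 10 CPM or more (grey) and for 40 proteasome subunit genes (red line). The members lie left of 1, the 2-fold line, in both tissues, while all genes extend to the right of it.

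With BPA against control in liver, 1 member was higher by at least 25% and 9 were lower by at least 20%, the inverse ratio, on CPM + 1, against 9.08% and 25% of all genes. The 9 were Psma1, Psma5, Psmb7, Psmb8, Psmb9, Psmc2, Psmd5, Psmd6 and Psme2, so that core, cap and immunoproteasome genes were all among them. Psmd6 was 1.78-fold lower (95% counting interval 1.56 to 2.03), Psma1 1.63-fold lower (1.45 to 1.84) and Psmc2 1.57-fold lower (1.36 to 1.81). With both against KRG in liver, 7 were higher and 0 lower, against 19.7% and 10.7%, and none of the 9 was lower by that size. Psmc4 was the 1 member of 40 apart by that size in the same direction in both pairs, a share below the 6.07% of all genes. It was higher by 1.48-fold (1.28 to 1.70) and 1.44-fold (1.24 to 1.68).

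In the additive fit of liver, Psmc4 had the strongest BPA signal of any member (log2 0.57, SE 0.17, adjusted p = 0.841, edgeR), so it did not pass. That fit called 0 members and 0% of 6709 genes for BPA, with 362 genes and 1 member at an unadjusted p under 0.05, while DESeq2 called 26 genes and 0 members. For KRG in liver it also called 0 members and 0% of genes, with 219 genes and 0 members at an unadjusted p under 0.05, while DESeq2 called 49 genes and 0 members.

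With KRG against control in liver, 0 members were higher and 1, Psmd14, was lower, against 9.79% and 15.6% of all genes. With both against BPA in liver, 10 were higher and 0 lower, against 26.7% and 7.75%. The 10 were Psma1, Psmb7, Psmb8, Psmb9, Psmb10, Psmc2, Psmd1, Psmd5, Psmd6 and Psme2. This pair and BPA against control share the BPA liver library. With TMM factors the 10 became 6 higher and 2 lower. Among the liver libraries pancreatic genes were high in the BPA library only. Skeletal muscle markers summed to 166, 2.47, 454 and 1.54 CPM in liver, low in both libraries given BPA. The part of either in the liver values was not tested.

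In uterus, BPA against control gave 6 members higher and 4 lower, against 20.1% and 13.1% of all genes. The 6 were Psmb8, Psmb9, Psmc2, Psmc4, Psmd6 and Psmd9, and the 4 were Psmb3, Psmb6, Psmc6 and Psmd3. Both against KRG gave 6 higher and 6 lower, against 30.4% and 22.3%. Psmb9 was the 1 member of 40 past that size in the same direction in both pairs, against 17.7% of all genes. The additive fit for BPA in uterus called 0 members, against 1.67% of 9198 genes. At an unadjusted p under 0.05 it had 1228 genes and 0 members. DESeq2 called 274 genes higher, 141 genes lower and 0 members.

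KRG against control in uterus gave 1 member higher (Psmd6) and 3 lower (Psmb9, Psmd3 and Psme4), against 12.3% and 25.6% of all genes, but with TMM factors 8 higher and 0 lower. Both against BPA gave 7 higher and 4 lower, against 15.2% and 21.7%. The additive fit for KRG in uterus called 0 members and 0% of genes, with 400 genes and 0 members at an unadjusted p under 0.05, while DESeq2 called 24 genes and 0 members. No member was apart by that size in the same direction in both KRG pairs of either tissue, against 4.1% of all genes in liver and 8.27% in uterus.

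**Figure D5:**
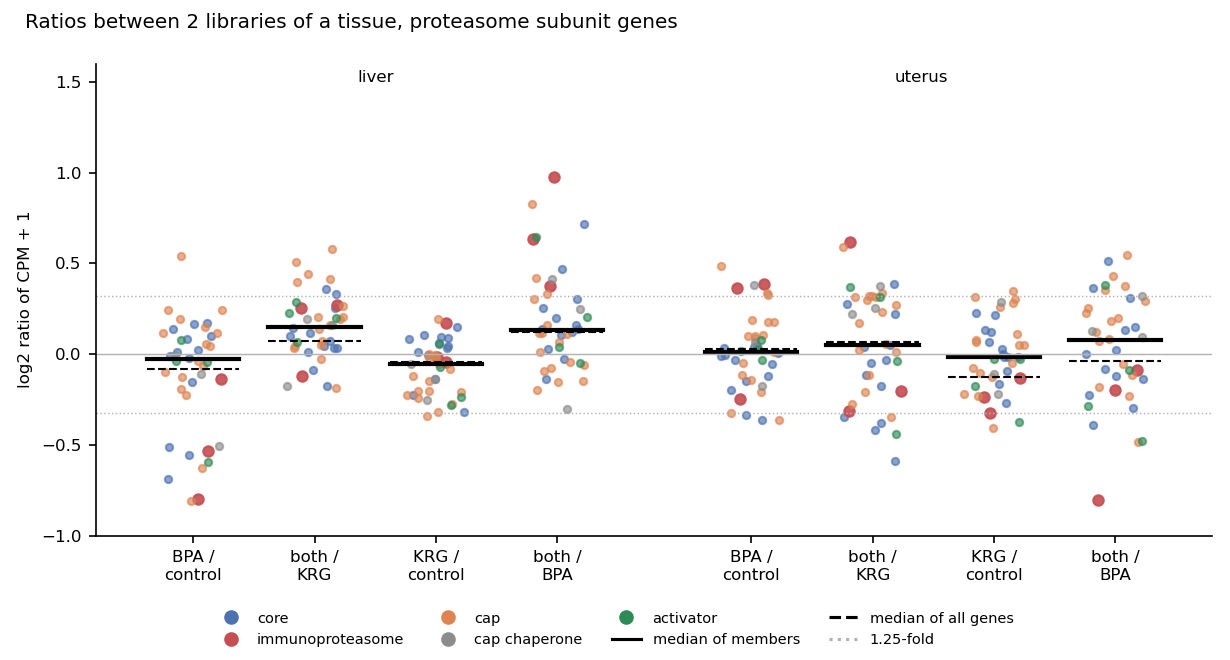
Log2 ratio of CPM + 1 between pairs of libraries of one tissue for 40 members, coloured by class, with the median of the members (solid bar), the median of all genes (dashed bar) and the size counted in the text (dotted lines). Most points lie inside the dotted lines, and immunoproteasome genes are among the lowest points for BPA against control in liver and the highest for both against BPA in liver.

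The BPA effect differed between tissues, by the interaction term, in 0 members, against 3.05% of 8687 genes. For KRG it differed in 0 members and 0% of genes, with 486 genes and 2 members, Psmc1 and Psmd12, at an unadjusted p under 0.05. DESeq2 called 19 genes and 0 members for that KRG term.

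Cap over core transcript sums were highest in the combined uterus library. The cap genes summed to 2871, 2727, 2802 and 3214 CPM in uterus and the constitutive core genes to 2420, 2315, 2432 and 2274 CPM, so that cap over core was 1.19, 1.18, 1.15 and 1.41. In liver this ratio was 1.23, 1.28, 1.09 and 1.20. Without Psmd3 the uterus ratios were 0.947, 0.984, 0.973 and 1.12. Of 17 cap genes 11 were highest in the combined uterus library, against 2765 of all 9198 genes, and of 13 core genes 6 were lowest there, against 2853 of 9198. The ratio was not tested, since it rests on 1 library. Of the 8 listed regulators of proteasome genes, Nfe2l1 (116, 118, 122 and 190.4 CPM), Nfe2l2 (78.6, 104, 54.2 and 139 CPM), Nfe2l3, Ddi2 and Mafk were also highest in that library. Ngly1 (14.4, 14.6, 14.4 and 11.2 CPM) and Maff were lowest there, and Mafg was highest with BPA. The share to set beside these is again 2765 of all 9198 genes highest there. Urothelial and skeletal muscle markers were highest there too, the latter at 1496 CPM against 78.4 to 182 CPM, and the part of either in these sums was not tested.

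Psma8 stood at 1.64 to 2.75 CPM in liver and 0.374 to 1.02 CPM in uterus, and Psmb11 at 0.0654 to 0.242 CPM in liver and 0.374 to 0.946 CPM in uterus. At these levels a library holds few counts of either gene, and no difference was read from them.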

How the data were processed

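The authors deposited a table of raw gene counts for each library, and these counts were used without change. Per the submitters' processing notes, Bowtie2, edgeR and the mm10 build were used. Which counter was used, with what strand setting and rule for reads with several matches, is not given in the sources used, and 79 rows share a symbol with another row. The members and gene lists were chosen with earlier results of these data known. CPM are counts per 1000000 counts of the library. Folds between a pair of libraries are ratios of CPM with exact Clopper-Pearson 95% intervals, and counts of members past a size and medians use log2 of CPM + 1. The labels name no molecular identifiers, and intervals hold counting error only. Genes that averaged 10 CPM or more in the libraries of a comparison were tested with edgeR 4.0.16 (R 4.3.3, quasi-likelihood, TMM), the p-values were adjusted over all genes tested, and DESeq2 1.42.0 was an alternative. The test was tried on simulated data. Since the labels name no separate animals, p-values measure the spread between these libraries only.

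Every member may be named. Values in every library are given for Psmb5 to Psmb10, Psme1 to Psme4 and, in each group of core and cap members, the highest, the lowest and those with the largest or smallest tissue ratio or the largest spread. Other genes come from lists of associated factors, regulators, antigen presentation, interferon response and cell markers. Coordinates are GENCODE M21 (mm10). In 9 members the last 300 bases match another transcript at 95% or more over at least 100 bases, and in 7 the last 500 bases overlap another gene, in 6 of them on the opposite strand (Psma3, Psmb7, Psmb8, Psmb10, Psmc3 and Psme1), so that their counts are uncertain. Of the copies, Psme2b and repeat-like matches of Psmb11 are counted in the files.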

Additional observations from a re-analysis of the deposited data

How the results depend on the processing

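The number of members called stayed at 0 in every alternative run for the 4 additive fits (which cannot spare a library) and both interaction fits, and when any 1 library was left out of the interaction fits. For liver against uterus, leaving out 1 library gave 34 to 38 members higher and 0 lower with TMM, 4 to 5 higher and 9 to 13 lower on totals, and 4 to 5 higher under both, with Psmd8, Psmd9, Psmd11 and Psme4 among them each time. The leave-one-out fits on totals were chosen after seeing the data. Treatment as a block, which sets a liver beside a uterus library by treatment and not by animal, gave 35 members higher. The counts that moved by over 1.5 times were these. On totals, liver against uterus gave 4 members higher and 10 lower, with 1768 genes higher and 5343 lower, and genes lower were 5521 at a mean of 1 CPM and 6408 with no filter. Genes called for BPA in liver were 1 at 1 CPM, 32 with no filter and 26 by DESeq2. For KRG in liver they were 1 on totals, 25 with no filter and 49 by DESeq2. For BPA in uterus they were 91 on totals, 371 at 1 CPM, 628 with no filter and 415 by DESeq2, against 154. For KRG in uterus they were 3 with no filter and 24 by DESeq2. The BPA interaction gave 455 genes by DESeq2 and 123 to 343 with 1 library left out, against 265, and the KRG interaction 19 by DESeq2 and 0 to 0 with 1 left out. Leaving out the control, BPA, KRG or combined liver library gave 131, 143, 123 and 128 genes for the BPA interaction, and leaving out the KRG or combined uterus library 172 and 162. Members apart by 25% higher or 20% lower also moved. For BPA against control in liver, TMM and DESeq2 factors each gave 3 higher. For KRG against control in liver, 0 were lower with TMM, DESeq2 factors, totals without Rn45s and a pseudocount of 5 CPM, and 2 with 0.25 CPM, at 1 CPM and with no filter. For both against BPA in liver, TMM gave 6 higher and 2 lower, DESeq2 factors 5 and 2, and totals without Rn45s 1 lower. For BPA against control in uterus, TMM, DESeq2 factors and a pseudocount of 5 CPM gave 3 higher, and that pseudocount and totals without Rn45s gave 2 lower. For both against KRG in uterus, TMM and DESeq2 factors gave 2 higher and totals without Rn45s 11. For KRG against control in uterus, TMM and DESeq2 factors gave 8 higher and 0 lower, totals without Rn45s and no filter 3 higher, 1 CPM 2 higher and a pseudocount of 5 CPM 0 higher. For both against BPA in uterus, TMM and DESeq2 factors gave 11 higher. Psmd3 with both against BPA in liver, 0.115 on totals (log2), was -0.033 with TMM and -0.0521 with DESeq2 factors. The cause of these changes was not tested. With 1 library per group, counting error is the only error known for a pair of libraries, and differences between animals cannot be told apart from treatment.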
